A study of Rattus norvegicus with 6 samples.

Results

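The 10 genes described here encode chemokines, small secreted or membrane-anchored proteins that guide the movement of cells. They are Cxcl9, Cxcl10, Cxcl1, Cxcl12, Cxcl16, Cx3cl1, Ccl2, Ccl7, Ccl5 and Ccl20, and they were chosen by name, as every probe set that the annotation of the array assigned to a single one of them. They gave 13 of the 31042 probe sets other than controls: 3 for Cxcl12, 2 for Cxcl9 and 1 for each of the others. The cells were rat 3Y1 embryonic fibroblasts, an established line, which carried by stable transfection either an empty vector (Vector) or 1 that encodes MUC1-CD, the cytoplasmic tail of the membrane mucin MUC1. The 3 groups were cultured Vector cells, cultured MUC1-CD cells, and tumors that MUC1-CD cells formed after injection under the skin of the hindlimbs of female athymic mice, each with 2 arrays that the labels call biological replicates. Whether a line was 1 clone or a pool, what promoter drove the transgene, how many mice gave the tumors and how old they were is not stated in those labels. The design text gives genes linked to transformation and tumor formation by MUC1-CD as the question. Culture RNA was extracted with TRIzol, while tumors were frozen, soaked in an RNA preservative and put through spin columns as well, so the growth setting and the RNA preparation cannot be told apart. An athymic mouse lacks a thymus, and so most T cells, but keeps macrophages, granulocytes, blood vessels and other host cells. The tumor RNA can therefore hold mouse RNA on an array made for rat genes, and how far it binds these probe sets was not tested. In such bulk samples, fewer cells of a type and less RNA per cell cannot be told apart.

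Chemokines fall into families named for the spacing of their first cysteines (CXC, CC and CX3C), and each acts through receptors on the cells it attracts. Cxcl9 and Cxcl10 act through Cxcr3 on activated T and natural killer cells and are classical interferon targets. Cxcl1 acts through Cxcr2 on neutrophils, Cxcl12 through Cxcr4, and Ccl2 and Ccl7 mainly through Ccr2 on monocytes. Ccl5 attracts T cells and monocytes, and Ccl20 acts through Ccr6. Cxcl16 and Cx3cl1 are made as membrane-anchored proteins that proteases of the Adam family can release, and their receptors are Cxcr6 and Cx3cr1. Fibroblasts are a known source of several of them, and NF-kB, the transcription factor of inflammatory signalling, drives many of their genes.

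The start regions of 8 of the 10 genes were in the RefSeq promoter table of build GRCr8, which gives 250 bases before to 50 bases after each start; Ccl2 and Ccl5 were not. Cxcl9, Cxcl10 and Cxcl1 lie on chromosome 14, and Ccl7 and Cxcl16 on chromosome 10. Both strands were searched for the NF-kB motif, for the interferon-stimulated response element (ISRE, spelled GAAA, any 2 bases, GAAA) and for the interferon gamma activated site (GAS, spelled TTCNNNGAA). The NF-kB motif was found in 3 of the 8 (Cxcl10, Cxcl1 and Ccl20) and in 4.18% of all 33469 promoters of the table. The ISRE was found in 1 of the 8 (Cxcl10) and in 3.92% of all, and the GAS in 2 of the 8 (Cxcl9 and Ccl7), in both cases after the start, and in 8.87% of all. A match is a description of the letters and not a site shown to be used. The 4 sequences below show the 3 members with an NF-kB match, beside Cx3cl1, the tested member with the largest difference between the cultures, which holds a match to none of the 3 motifs. They are the 250 bases before each start, run 5′ to 3′ on the strand of the gene and carry matches in capitals. They cover chr14:15988816-15989065 (plus strand, Cxcl10), chr14:17479322-17479571 (minus strand, Cxcl1), chr9:91836909-91837158 (plus strand, Ccl20) and chr19:10242821-10243070 (minus strand, Cx3cl1).
Cxcl10: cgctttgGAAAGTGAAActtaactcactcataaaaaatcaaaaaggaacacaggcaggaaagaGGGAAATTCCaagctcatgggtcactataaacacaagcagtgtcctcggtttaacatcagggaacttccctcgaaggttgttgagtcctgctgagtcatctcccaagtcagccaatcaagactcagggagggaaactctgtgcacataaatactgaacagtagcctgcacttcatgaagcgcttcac
Cxcl1: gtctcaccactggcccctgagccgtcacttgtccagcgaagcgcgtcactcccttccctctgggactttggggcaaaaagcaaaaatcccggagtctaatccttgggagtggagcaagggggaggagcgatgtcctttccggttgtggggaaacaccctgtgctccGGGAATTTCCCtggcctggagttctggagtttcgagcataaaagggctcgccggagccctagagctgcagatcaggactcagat
Ccl20: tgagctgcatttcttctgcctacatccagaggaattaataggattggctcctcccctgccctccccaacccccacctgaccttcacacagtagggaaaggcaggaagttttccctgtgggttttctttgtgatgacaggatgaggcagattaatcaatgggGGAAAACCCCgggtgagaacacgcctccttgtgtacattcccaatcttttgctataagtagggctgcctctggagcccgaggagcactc
Cx3cl1: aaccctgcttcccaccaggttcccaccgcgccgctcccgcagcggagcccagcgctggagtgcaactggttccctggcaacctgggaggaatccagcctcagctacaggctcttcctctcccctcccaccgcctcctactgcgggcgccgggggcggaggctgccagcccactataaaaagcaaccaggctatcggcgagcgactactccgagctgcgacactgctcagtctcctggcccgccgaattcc
In Cxcl10 the first run of capitals is the ISRE match and the second the NF-kB match. In Cxcl1 NF-kB matches on opposite strands overlap in 1 run, and in Ccl20 the match lies on the opposite strand.

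Levels are MAS5 signals, the brightness of a probe set on a linear scale, with each array scaled to the same trimmed mean of 500.2. Signals of different probe sets cannot be set against each other. Sums over a marker list are compared between arrays only, and the brightest probe sets of the list weigh most in them. Tests used limma on log2(signal + 16) over 18625 probe sets with a mean signal of at least 61.6, and a probe set was called where the adjusted p (Benjamini-Hochberg over all of them) was under 0.05. Log2 changes are on that scale, which understates the change of dim genes. Of the 10 genes, 8 passed this filter. Ccl20, with a mean signal of 37.2, and both probe sets of Cxcl9, with 49.1 and 40.6, did not; the dimmest members inside were the second probe set of Cxcl12, with 92.1, and Ccl5, with 152. Cx3cl1 and Cxcl12 had Vector signals under the filter value and passed through their MUC1-CD arrays, so counts over the tested members are no evidence of their own.

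The Vector arrays stood apart in RNA quality. Signal of the 3′ Gapdh probe set over that of the 5′ one was 11.5 and 17.8 there, against 1.11 to 1.18 on the other 4 arrays, and for actin 4.15 and 41.8 against 2.97 to 3.37. The SD of the log2 difference between replicates was 0.616 in Vector, 0.257 in MUC1-CD culture and 0.284 in tumors. Both Vector arrays lie on 1 side of this split and all others on the opposite side, so in every comparison with Vector the 3′ to 5′ ratio and the vector cannot be told apart. All 10 fibroblast markers on the array lay above the filter value on every array, with summed signals of 128988 to 137174 in Vector, 94353 to 95680 in MUC1-CD culture and 111763 to 116140 in tumors.

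In culture, MUC1-CD cells had more Cx3cl1, Ccl2 and Cxcl12 signal than Vector cells and less Cxcl10, Ccl5 and Cxcl16. Thus 6 of the 8 tested members were called, 3 higher and 3 lower, where 45.8% of all tested probe sets were called, 25.0% higher and 20.7% lower. The median log2 change was -0.04 over the 8 members and 0.07 over all, and the median size of the change was 1.13 against 0.54. Groups did not overlap for 8 of the 8, against 73.1% of all probe sets. In tumors against MUC1-CD culture, Cxcl12, Ccl5 and Ccl7 were called higher, 3 of the 8, where 15.8% of all were called, 8.54% higher and 7.31% lower. No member was called lower there by limma, and 1 (Ccl2) was lower at an unadjusted p under 0.05. Groups did not overlap for 6 of the 8, against 72.5% of all, and the median log2 change was 0.05 over the members and 0.05 over all. In tumors against Vector culture, 5 of the 8 were called, 3 higher (Cxcl12, Cx3cl1 and Ccl2) and 2 lower (Cxcl10 and Cxcl16), where 51.5% of all were called, 29.1% higher and 22.4% lower. Groups did not overlap there for 8 of the 8, against 75.4% of all. The first and second comparison share the MUC1-CD culture arrays, and the third shares its arrays with both.

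**Figure D1:**
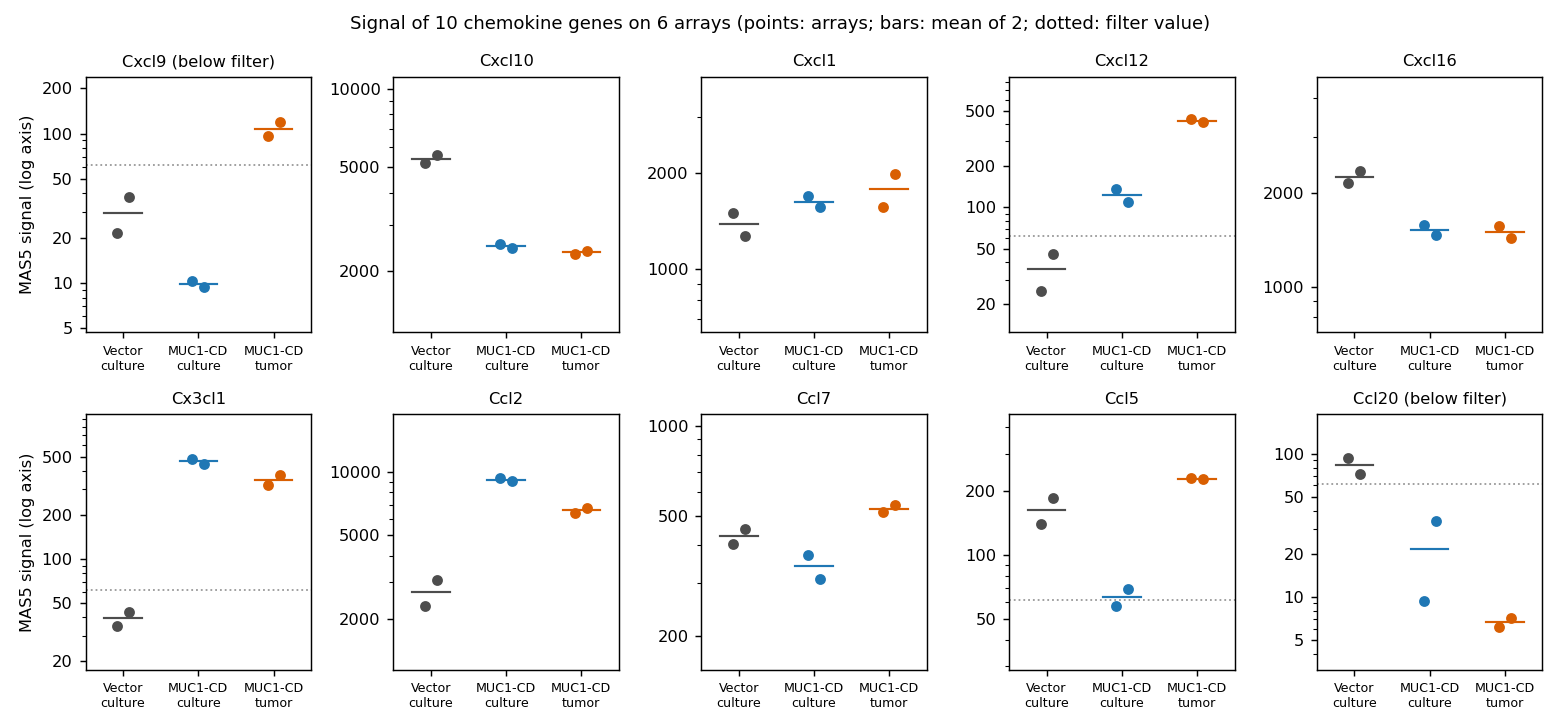
MAS5 signal (log axis, with its own range in each panel) of the 10 chemokine genes on the 6 arrays; points are arrays, bars are means of 2, and the dotted line is the filter value of 61.6. Cxcl10 was 5188.4 and 5558.1 on the Vector arrays and between 2320.5 and 2532.8 on the other 4, while Cx3cl1 was 35.1 and 43.5 in Vector and between 321.4 and 486.4 on the others.

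Of the Cxcr3 ligands, Cxcl10 had signals of 5188.4 and 5558.1 in Vector, 2532.8 and 2446.6 in MUC1-CD culture and 2320.5 and 2386.5 in tumors. Both Vector arrays were high and the other 4 were close together. Mean signal was 5373 ± 261 (SD, n = 2) in Vector and 2490 ± 61.0 (SD, n = 2) in MUC1-CD culture, 2.16-fold lower, and the log2 value fell by 1.10 (SE 0.10, limma adjusted p = 0.000293). Between tumors and MUC1-CD culture the log2 difference was -0.08, with a 95% interval of -0.31 to 0.15 (adjusted p = 0.624). Tumors were 2.28-fold below Vector (log2 -1.18, adjusted p = 0.000166; -1.78 under median scaling). Cxcl10 is the member with both an ISRE and an NF-kB match in the printed sequence.

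Cxcl9 was dim, and its probe sets did not go the same way between the cultures. The brighter one (1373544_at) had 21.7 and 37.5 in Vector, 10.4 and 9.4 in MUC1-CD culture and 96.5 and 119.0 in tumors. The other (1382454_at) had 2.3 and 9.2, then 23.7 and 31.7, then 77.6 and 99.0. Both were highest on the tumor arrays with no overlap, and between the cultures the first was lower and the second higher in MUC1-CD cells. With no filter, tumors exceeded MUC1-CD culture by 2.25 in log2 on the first (SE 0.32, limma adjusted p = 0.00919) and by 1.25 on the second (SE 0.32, adjusted p = 0.0612). Between the cultures the unfiltered log2 differences were -0.79 (adjusted p = 0.118) and 1.02 (adjusted p = 0.0577).

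Cxcl1, the Cxcr2 ligand, had signals of 1501 and 1272.1 in Vector, 1694.8 and 1564.5 in MUC1-CD culture and 1569.3 and 1992.8 in tumors. The tumor values overlapped those of MUC1-CD culture, and both Vector values lay below all others. The log2 difference of MUC1-CD from Vector culture was 0.23 (SE 0.16, 95% interval -0.15 to 0.61, adjusted p = 0.271), and -0.09 after scaling each array to its median. Tumors differed from MUC1-CD culture by 0.12 (interval -0.26 to 0.50) and from Vector by 0.35 (interval -0.03 to 0.73), or by -0.15 and -0.24 under median scaling. No difference was called, and these intervals do not show equal levels. Without Vector replicate 1, Cxcl1 was called higher in MUC1-CD culture (adjusted p = 0.0401).

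Cxcl12, the Cxcr4 ligand that stromal cells make, was lowest in Vector, higher in MUC1-CD culture and highest in tumors on all 3 probe sets. The brightest (1369633_at) had 24.9 and 46.2 in Vector, 135.3 and 108.7 in MUC1-CD culture and 436.9 and 410.5 in tumors. The second (1388583_at) had 1.3 and 30.1, then 69.7 and 39.7, then 211.9 and 200.1. The third (1387655_at), under the filter, had 3.7 and 3.0, then 23.5 and 7.2, then 94.4 and 55.0. No groups overlapped on any of the 3. On the brightest, mean signal was 3.43-fold higher in MUC1-CD than in Vector culture (log2 1.45, SE 0.26, limma adjusted p = 0.00490; 0.91 and still called with a pseudocount of 64) and 3.47-fold higher in tumors than in MUC1-CD culture (log2 1.68, SE 0.26, adjusted p = 0.00847). The second gave log2 differences of 1.29 (SE 0.49, adjusted p = 0.0698) and 1.68 (SE 0.49, adjusted p = 0.0630), which were not called. Tumors against Vector was called on both, with log2 changes of 3.12 (SE 0.26, adjusted p = 0.000182) and 2.97 (SE 0.49, adjusted p = 0.00271). Leaving out any of the 4 MUC1-CD arrays ended the call of the tumor rise on the brightest, with log2 values of 1.54 to 1.82.

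**Figure D2:**
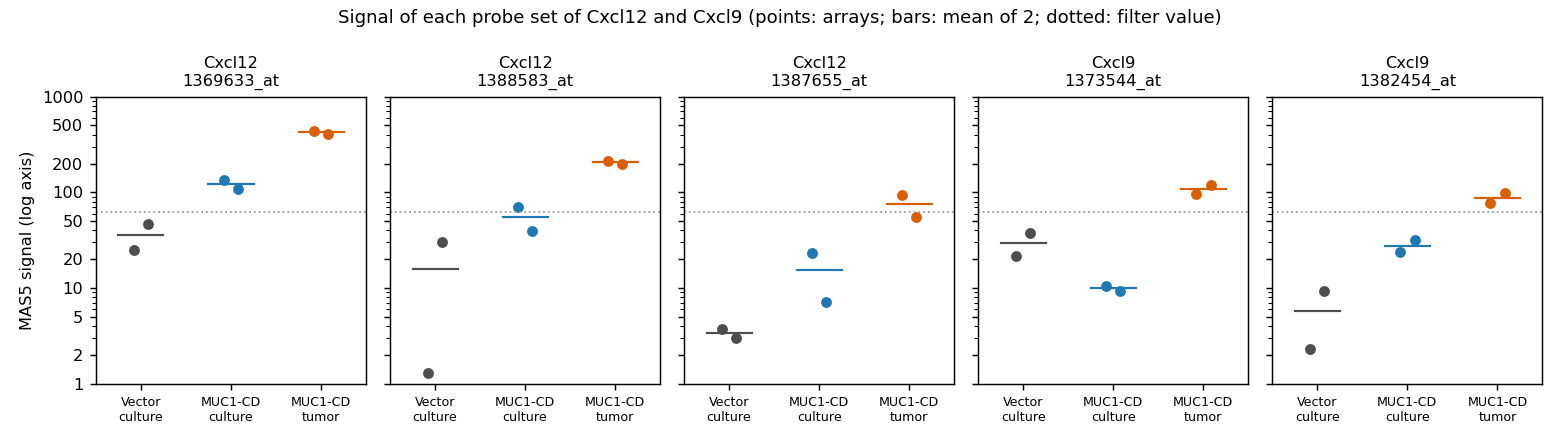
MAS5 signal (log axis) of each probe set of Cxcl12 and Cxcl9 on the 6 arrays; points are arrays and bars are means of 2. The 3 probe sets of Cxcl12 share 1 order of groups, while those of Cxcl9 are highest in tumors but lie in opposite order between the cultures (10.4 and 9.4 against 23.7 and 31.7 in MUC1-CD culture).

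Of the membrane-anchored chemokines, Cx3cl1 (fractalkine, which can hold leukocytes to the cell surface) had 35.1 and 43.5 in Vector, 486.4 and 446.9 in MUC1-CD culture and 321.4 and 378.2 in tumors. Mean signal was 11.9-fold higher in MUC1-CD than in Vector culture, at 467 ± 27.9 against 39.3 ± 5.94 (SD, n = 2 each). The log2 change was 3.13 (SE 0.19, 95% interval 2.68 to 3.58, adjusted p = 7.80e-05), and 1.85% of the tested probe sets changed more. In tumors it was 8.90-fold above Vector (log2 2.73, adjusted p = 9.26e-05). Both tumor arrays lay below both MUC1-CD culture arrays, by a log2 difference of -0.40 (interval -0.86 to 0.05, adjusted p = 0.203). That difference was called where those groups were fitted alone (adjusted p = 0.0272) and where either Vector array was left out.

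Cxcl16 went the other way, with 2147.6 and 2338.2 in Vector, 1580.1 and 1465.4 in MUC1-CD culture and 1559.0 and 1429.6 in tumors. Both Vector arrays were high, and the tumor and MUC1-CD culture values overlapped. Signal was 1.47-fold lower in MUC1-CD than in Vector culture, and log2 fell by 0.55 (SE 0.12, adjusted p = 0.00969; -0.88 under median scaling). Without MUC1-CD culture replicate 1 or 2 the call was lost (adjusted p = 0.0561 and 0.0953). Tumors were 1.50-fold below Vector (log2 -0.58, adjusted p = 0.00686; -1.17 under median scaling), a call lost without tumor replicate 2, and differed from MUC1-CD culture by -0.03 in log2 (interval -0.31 to 0.26).

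Of the CC chemokines, Ccl2, which attracts monocytes, had 2295.0 and 3069.4 in Vector, 9380.7 and 9021.6 in MUC1-CD culture and 6388.0 and 6749.1 in tumors. The groups did not overlap, with MUC1-CD culture highest. Mean signal was 3.43-fold higher in MUC1-CD than in Vector culture (log2 1.79, SE 0.14, limma adjusted p = 0.000196), and 2.45-fold higher in tumors than in Vector (log2 1.30, SE 0.14, adjusted p = 0.000492; 0.71 under median scaling, adjusted p = 0.00607). The difference of tumors from MUC1-CD culture was -0.49 in log2 (SE 0.14, interval -0.82 to -0.15) and was not called (adjusted p = 0.0647). It was called under median scaling (-0.76, adjusted p = 0.0151), under quantile normalization (-0.48, adjusted p = 0.0436), where the 2 MUC1-CD groups were fitted alone (adjusted p = 8.83e-05) and where either Vector array was left out.

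Ccl7, a close relative of Ccl2 that also attracts monocytes, had 404.8 and 452.6 in Vector, 371.9 and 308.8 in MUC1-CD culture and 515.7 and 544.8 in tumors. Both tumor arrays were highest and both MUC1-CD culture arrays lowest. The log2 difference of MUC1-CD from Vector culture was -0.32 (interval -0.71 to 0.07, adjusted p = 0.150), called under median scaling (-0.64) and without Vector replicate 1. Tumors were 1.56-fold above MUC1-CD culture (log2 0.62, SE 0.16, adjusted p = 0.0470). This call was lost under median scaling (0.36, adjusted p = 0.195), quantile normalization (adjusted p = 0.0657), a pseudocount of 1 (adjusted p = 0.0509), no filter (adjusted p = 0.0652) and no variance trend (adjusted p = 0.0552), and without any 1 of the 4 MUC1-CD arrays (0.49 to 0.75).

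Ccl5, an attractant of T cells and monocytes, had 139.5 and 186.2 in Vector, 57.7 and 69.4 in MUC1-CD culture and 229.5 and 228.9 in tumors. MUC1-CD culture was lowest and tumors highest, with no overlap. Signal was 2.56-fold lower in MUC1-CD than in Vector culture, and log2 fell by 1.16 (SE 0.22, adjusted p = 0.00590), a call lost without MUC1-CD culture replicate 1 (adjusted p = 0.0527). In tumors it was 3.61-fold above MUC1-CD culture (log2 1.63, SE 0.22, limma adjusted p = 0.00496), a call lost without MUC1-CD culture replicate 1 or either tumor array (1.52 to 1.63). Tumors against Vector gave 0.47 (interval -0.06 to 1.00, adjusted p = 0.119), called without Vector replicate 2 (0.66, adjusted p = 0.0344), and -0.08 under median scaling (adjusted p = 0.765) and 0.11 under quantile normalization (adjusted p = 0.713).

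Ccl20, the Ccr6 ligand, had 93.9 and 72.7 in Vector, 9.3 and 34.0 in MUC1-CD culture and 6.2 and 7.1 in tumors. Only the Vector arrays exceeded the filter value, and the groups did not overlap. With no filter, log2 fell by 1.47 from Vector to MUC1-CD culture (SE 0.39, adjusted p = 0.0331) and by 2.12 from Vector to tumors (SE 0.39, adjusted p = 0.00696). The tumor against MUC1-CD culture difference was -0.65 (adjusted p = 0.364).

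**Figure D3:**
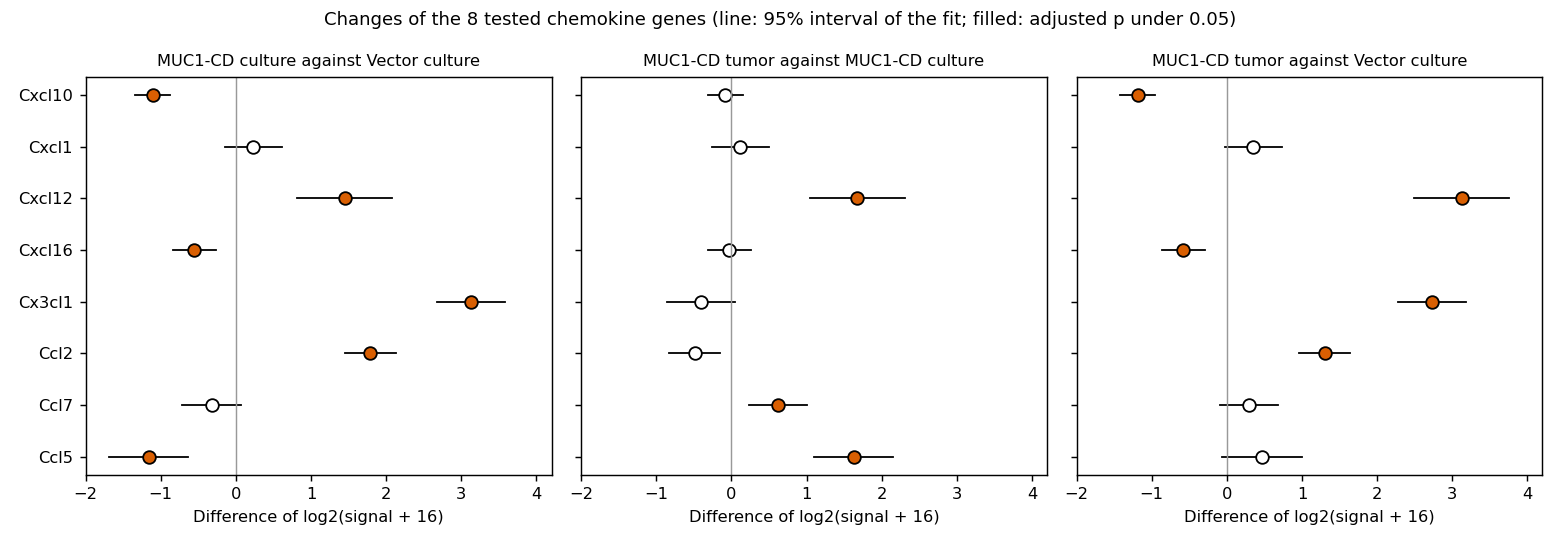
Log2 change of log2(signal + 16) with its 95% interval for the 8 tested chemokine genes in the 3 comparisons; filled points are called. Cx3cl1 (3.13), Ccl2 (1.79) and Cxcl12 (1.45) lay above 0 and Ccl5 (-1.16), Cxcl10 (-1.10) and Cxcl16 (-0.55) below it in MUC1-CD against Vector culture; Cxcl12, Ccl5 and Ccl7 lay above 0 in tumors against MUC1-CD culture, Ccl7 with a call that 6 of 10 other settings and the loss of any 1 MUC1-CD array end.

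Of 26 other chemokines listed, 21 were on the array and 3 were tested. Ccl3, an inflammatory CC chemokine, had 21.2 and 12.2 in Vector, 51.4 and 88.6 in MUC1-CD culture and 149.7 and 172.4 in tumors; it rose between the cultures (log2 1.37, adjusted p = 0.0132; 1.06 and not called without MUC1-CD culture replicate 2), and the further difference in tumors was 1.07 (adjusted p = 0.0687). Ccl4, a close relative of Ccl3, had 51.7 and 31.6, then 59.2 and 50.2, then 126.7 and 148.8. It was called higher in tumors than in MUC1-CD culture (log2 1.12, limma adjusted p = 0.0417). The call was lost under median scaling, quantile normalization, no filter (adjusted p = 0.0780) and a pseudocount of 1 (adjusted p = 0.0660). It was also lost without any 1 of the 4 MUC1-CD arrays (1.02 to 1.22). Ccl4 was under the filter value on all 4 culture arrays and passed only through its tumor arrays. Ccl3, above that value in culture only on MUC1-CD replicate 2, also passed through its tumor arrays. The tumor differences of both are therefore no evidence of their own. Cxcl11, the remaining Cxcr3 ligand, had 406.8 and 565.5, then 589.4 and 590.7, then 811.6 and 758.7. Its log2 difference between the cultures was 0.29 (adjusted p = 0.239), beside the fall of Cxcl10, and tumors exceeded Vector by 0.69 (adjusted p = 0.0188), or by 0.11 under median scaling (adjusted p = 0.634); without either tumor array it was not called (0.64 and 0.74).

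Of the receptors, 17 of 23 listed were on the array and 5 were tested. Of these, 3 were called higher in MUC1-CD than in Vector culture (Ackr4, Cxcr4 and Ccr1), where 25.0% of all tested probe sets were. All 3 had Vector signals under the filter value and passed through their MUC1-CD culture or tumor arrays. The count is therefore no evidence of its own. Cxcr4, the Cxcl12 receptor, had 28.3 and 46.8 in Vector, 173.7 and 141.9 in MUC1-CD culture and 120.3 and 109.4 in tumors. It rose between the cultures by 1.71 in log2 (SE 0.27, adjusted p = 0.00255), while the tumor difference was -0.40 (adjusted p = 0.350). A second probe set (1389244_x_at) had 21.6 and 10.7, then 205.1 and 167.4, then 46.3 and 50.3, and there tumors were called lower than MUC1-CD culture (log2 -1.65, adjusted p = 0.0133). The third (1370097_a_at), under the filter and not tested, had 0.6 and 10.3, then 67.3 and 85, then 17.2 and 29.5. Ackr4, a decoy receptor that takes up chemokines such as Ccl19 and Ccl21, had 20.6 and 42.2, then 678.2 and 551.5, then 550.8 and 440.9, a rise of 3.77 between the cultures (SE 0.27, adjusted p = 0.000137).

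Ccr1, a Ccl5 receptor of myeloid cells, had 7.7 and 1.4 in Vector, 26.9 and 27.7 in MUC1-CD culture and 247.7 and 213.3 in tumors. Tumors exceeded MUC1-CD culture by 2.51 in log2 (SE 0.30, limma adjusted p = 0.00323). The difference between the cultures was 1.09 (adjusted p = 0.0251), on signals under the filter value in both, and was lost with a pseudocount of 64 (adjusted p = 0.0667) and without MUC1-CD culture replicate 1 or 2 or tumor replicate 2 (1.08 to 1.11). Cxcr3, the Cxcl9 and Cxcl10 receptor, had 67.7 and 97.8, then 45 and 36, then 63.6 and 95.8, and passed in no comparison, nor did Cxcr5. Under median scaling Cxcr3 was called lower in MUC1-CD than in Vector culture (log2 -1.07, adjusted p = 0.0289). The same held under quantile normalization (-0.97, adjusted p = 0.0458). Cx3cr1, the Cx3cl1 receptor, was not tested and had 31.5 and 29, then 10.7 and 8.2, then 100.2 and 79.5. Ccr2, the Ccl2 receptor, had 2.6 and 1.8, then 5.1 and 1.8, then 32.8 and 60.8. Cxcr2, the Cxcl1 receptor, had 8.6 and 30.7, then 19 and 20, then 104 and 63.6. For these 3 the tumor arrays were highest, with no overlap.

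Of 7 proteases that act on chemokines, 6 were tested. Mmp12, at 26.2 to 37.9 in culture, passed the filter only through its tumor arrays, so the count of higher calls below is no evidence of its own. Adam17, which can release Cx3cl1 from the membrane, had 1583.4 and 1773.2 in Vector, 4570.9 and 4593.9 in MUC1-CD culture and 3387.3 and 3265.6 in tumors. It rose between the cultures by 1.44 in log2 (SE 0.10, adjusted p = 0.000142) and fell by 0.46 from MUC1-CD culture to tumors (adjusted p = 0.0300), the same order of groups as Cx3cl1 and Ccl2; the second call was lost without any 1 of the 4 MUC1-CD arrays (-0.49 to -0.43). Mmp2, which can cut Ccl7 and Cxcl12, had 86.5 and 86.9, then 30.6 and 20.4, then 2138.8 and 2294.1; it fell by 1.32 between the cultures (adjusted p = 0.00213) and rose by 5.76 in tumors (adjusted p = 6.41e-05). A second Mmp2 probe set (1369825_at) gave -0.40 between the cultures (adjusted p = 0.331, not called) and 2.43 in tumors (adjusted p = 0.00379). In tumors against MUC1-CD culture, 3 of the 6 were called higher (Mmp2, Mmp12 and Mmp14) and 1 lower (Adam17), where 8.54% and 7.31% of all tested probe sets were, and 2 stayed called without any 1 of those 4 arrays. The call of Mmp14 (log2 1.03, adjusted p = 0.0413) was lost under median scaling, with no filter and without any 1 of those arrays (0.98 to 1.09), and its second probe set (1378225_at) gave 0.09 (adjusted p = 0.913).

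**Figure D4:**
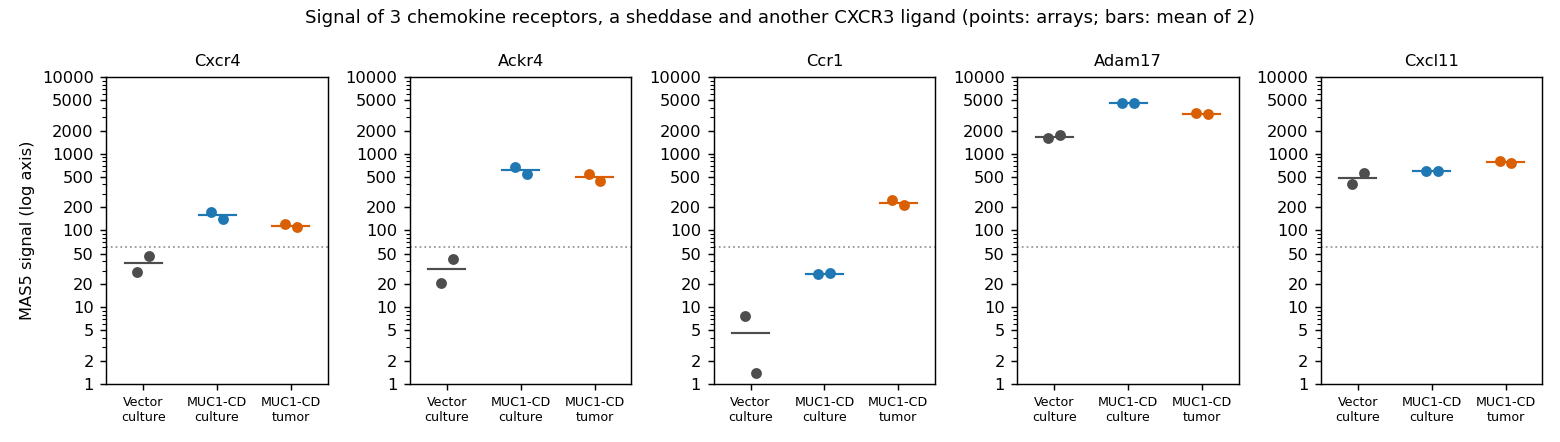
MAS5 signal (log axis, shared by all panels) of the receptors Cxcr4, Ackr4 and Ccr1, the protease Adam17 and the Cxcr3 ligand Cxcl11 on the 6 arrays; points are arrays, bars are means of 2, and the dotted line is the filter value of 61.6. Cxcr4, Ackr4 and Adam17 were higher on all 4 MUC1-CD arrays than in Vector, whereas Ccr1 was 247.7 and 213.3 in tumors and at most 27.7 elsewhere.

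Of 12 tested genes of interferon signalling, 4 were called higher in MUC1-CD than in Vector culture, where 25.0% of all tested probe sets were. Stat2 (log2 1.34, adjusted p = 0.000809) and Irf9 (1.06, adjusted p = 0.00190) encode parts of the factor that binds the ISRE; a second Stat2 probe set gave 0.84 (adjusted p = 0.00348) and a second Irf9 probe set 0.29 (adjusted p = 0.258). Tyk2 (0.68, adjusted p = 0.0161) and Ifngr1 (0.56, adjusted p = 0.0169) were not called under median scaling, nor without MUC1-CD culture replicate 1 (0.53 and 0.57), and Ifngr1 not without replicate 2 (0.56). In tumors against MUC1-CD culture 2 of the 12 were called higher, Irf7 (0.94, adjusted p = 0.00330) and Irf1 (0.96, adjusted p = 0.00504), where 8.54% of all were. Irf1 was lost without any 1 of the 4 MUC1-CD arrays (0.91 to 1.01) and Irf7 without any of them but MUC1-CD culture replicate 1 (0.90 to 0.97). Between the cultures the sign of some genes of the list depended on the Vector array left out. Jak2 gave 0.77 in log2 without Vector replicate 1 and -0.44 without replicate 2.

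Of 15 tested genes of NF-kB signalling and inflammatory cytokines, 4 were called higher and 1 lower in MUC1-CD than in Vector culture, where 25.0% and 20.7% of all tested probe sets were. Il1r1, the interleukin 1 receptor, rose by 1.42 in log2 (adjusted p = 0.000259), Nfkb1, the p50 subunit, by 0.96 (adjusted p = 0.00103), Chuk, an IkB kinase, by 0.80 (adjusted p = 0.00216) and Nfkbiz by 1.05 (adjusted p = 0.00271). The cytokine Il6 fell by 1.03 (adjusted p = 0.0443), a call lost with no filter, and without either MUC1-CD culture array or Vector replicate 2 (-1.07 to -0.99). In tumors against MUC1-CD culture 4 of the 15 were called higher: Relb (1.23, adjusted p = 0.00534), the inhibitors Nfkbia (0.92, adjusted p = 0.0152) and Nfkbib (0.83, adjusted p = 0.0225), and Nfkb1 (0.47, adjusted p = 0.0422). All 4 of those calls were lost without any 1 of the 4 MUC1-CD arrays, with log2 values of 1.15 to 1.30 for Relb. Calls in tumors numbered 2 under median scaling. Between the cultures the sign of some genes depended on the Vector array left out. Nfkb2 gave 0.27 in log2 without Vector replicate 1 and -0.97 without replicate 2.

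Many markers of host cell types were higher on the tumor arrays than in MUC1-CD culture, as were Cxcl12, Ccl5, Ccl7 and Cxcl9. Some markers were lower there, and Laptm5 (log2 -0.81), Krt15 (-1.97) and Tpm2 (-0.57) were called lower. Of 12 tested macrophage markers, 8 were called higher and 1 lower in tumors than in MUC1-CD culture, where 8.54% and 7.31% of all tested probe sets were. Several tested macrophage, endothelial, muscle and granulocyte markers, such as Aif1 and Coro1a, passed the filter only through their tumor arrays. Counts of higher calls over these lists are therefore no evidence of their own. Some of these markers were not tested where a tumor array was left out. Coro1a rose from 15 and 1.6 to 911.6 and 1105.3 (log2 5.45, adjusted p = 0.000281), Aif1 from 0.8 and 0.4 to 639.3 and 604 (5.26, adjusted p = 0.000281) and C1qa from 29.3 and 50.5 to 914.1 and 887.3 (4.06, adjusted p = 0.000281). Summed over the 18 macrophage markers on the array, signals were 1266 to 1386 in Vector, 3505 to 3749 in MUC1-CD culture and 8019 to 8058 in tumors. Of the MUC1-CD culture sum, Cd14 alone gave 2827.6 and 3051.6, and it rose from Vector culture by 2.45 in log2 (limma adjusted p = 7.29e-05). Between the cultures Cd163 also rose (log2 2.78, adjusted p = 0.000641), while Lyz2 fell (-2.16, adjusted p = 0.000647). Of the 12 tested, 2 were called higher there, 1 lower and 9 not at all, where 25.0% and 20.7% of all tested probe sets were called higher and lower. Without any 1 of the 4 MUC1-CD arrays, 4 or 5 macrophage markers were called in tumors against MUC1-CD culture. Of 4 tested endothelial markers 4 were called higher in tumors than in MUC1-CD culture, and fewer without any 1 of the 4 MUC1-CD arrays. Sums over 11 were 352 to 385 in Vector, 291 to 381 in MUC1-CD culture and 2827 to 2921 in tumors. Of the tumor sum, Aqp1 alone gave 1763.4 and 1550.4. Under the filter and not tested, Tie1, Emcn, Cldn5 and Eng were higher in tumors than in MUC1-CD culture with no overlap. Vwf was lower, at 9.7 and 10.2 against 24.3 and 21.1, and Pecam1 and Kdr overlapped. Of 10 tested muscle markers 9 were called higher and 1 lower, with 5 to 8 called without any 1 of those arrays (5 without MUC1-CD culture replicate 1), and with sums over 12 of 19478 to 19486 in Vector, 12412 to 12623 in MUC1-CD culture and 19635 to 20709 in tumors. Of the muscle sum in Vector, Myh1 gave 9778.9 and 10296.6 and Tpm2 9290.5 and 8731.5. Acta1 was 23.6 and 6.1 in Vector and 5854.5 and 4971.2 in tumors. Granulocyte markers were called higher for 2 of 2 tested. Their sums over 5 were 246 to 287 in Vector, 74.7 to 95.3 in MUC1-CD culture and 458 to 522 in tumors. Fcgr3a lost its call without any 1 of the 4 MUC1-CD arrays (log2 1.12 to 1.55). Without either tumor array S100a9 fell under the filter and was not tested. Lymphoid markers were all under the filter, with sums over 15 of 200 to 300 in Vector, 210 to 258 in MUC1-CD culture and 586 to 699 in tumors. Keratinocyte markers were called higher for 1 and lower for 1 of 3 tested, with sums over 10 of 520 to 687 in Vector, 326 to 428 in MUC1-CD culture and 896 to 945 in tumors. Fibroblast markers were called higher for 3 and lower for 1 of 10 in tumors against MUC1-CD culture. Fewer calls were left without any 1 of the 4 MUC1-CD arrays, and more without either Vector array. In MUC1-CD against Vector culture 1 of the 10 was called higher and 6 lower, where 25.0% and 20.7% of all tested probe sets were. No listed marker was at 0 on any array, and the part of these cells in the chemokine differences was not tested.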

How the data were processed

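RNA of 6 samples was hybridised to Rat Genome 230 2.0 arrays, 1 array each. The deposited values are MAS5 signals per the submitters' processing notes, that is, linear intensity values per probe set; of the software's version, its detection calls and any filter by the authors, nothing was given in the sources used here. The scaling was kept. Of 31099 probe sets, 57 were controls. A platform annotation gave 20826 a single gene and 436 several, and 20764 matched GRCr8 by Entrez identifier. Groups followed the sample titles. One model of all 6 arrays in 3 groups of 2 was fitted to log2(signal + 16) with limma 3.58.1 in R 4.3.3 (eBayes with trend, two-sided), over 18625 probe sets at or above the 40th percentile of mean signal. Residual degrees of freedom were 3 and prior ones 3.70 (median), so the number of arrays limits the precision. It was tested on simulated data. Nothing but the label says the replicates are separate cultures or animals, so p-values measure the spread between these arrays, which may be technical.

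A gene's brightest tested probe set was used, with other tested ones beside it. All 10 chemokines were named. Other chemokines and receptors could all be named. Of the lists of proteases, interferon signalling, NF-kB signalling and markers, up to 4 genes with the smallest p in a comparison were named. The markers were those of fibroblasts, macrophages, lymphoid cells, granulocytes, endothelium, muscle and keratinocytes. Also named, after their values were seen, were Jak2, Nfkb2, Tpm2, Laptm5, the untested endothelial markers and Il6, the 1 lower call of its list. Members and lists were chosen with earlier results of these data known. Alternatives changed the pseudocount, filter, scaling, normalization, arrays fitted, trend, probe set, replicate block and each array left out; the effect on other lists of leaving out an array was added after seeing the data.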

Additional observations from a re-analysis of the deposited data

How the results depend on the processing

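Median scaling moved the median log2 change of all tested probe sets from 0.07 to -0.24 in MUC1-CD against Vector culture, from 0.05 to -0.21 in tumors against MUC1-CD culture and from 0.12 to -0.45 in tumors against Vector. The share of calls that were higher went from 54.7% to 33.7%, from 53.9% to 22.9% and from 56.5% to 25.7%. Called members in MUC1-CD against Vector culture numbered 6, and 4 to 8 when 1 array was left out (4 without MUC1-CD culture replicate 1, 8 without Vector replicate 1). In tumors against Vector they numbered 5, and 4 to 6. In tumors against MUC1-CD culture they numbered 3, but 1 of 6 tested with a filter at the 60th percentile and 5 where those groups were fitted alone. Leaving out 1 array gave 0 to 5: limma called 0 without MUC1-CD culture replicate 1 or either tumor array (3 at an unadjusted p under 0.05 each time), 1 without MUC1-CD culture replicate 2 and 5 without either Vector array. A lone array was assumed to vary like the other groups. The setting with a second probe set could change Cxcl12 alone, the only member with more than 1 tested. For the other members it gave the same values by construction. Of the members' single log2 changes over all alternatives, 342 kept their side of the threshold, 13 passed it and 23 no longer did; no called change changed sign. Calls over all probe sets in tumors against MUC1-CD culture numbered 2952, from 572 (without tumor replicate 1) to 8144 (those groups alone). In MUC1-CD against Vector culture they numbered 8522, from 4391 without MUC1-CD culture replicate 2 to 11503 without Vector replicate 1, and in tumors against Vector 9589, from 5884 without tumor replicate 1 to 12434 without Vector replicate 1.

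Same-numbered samples did not deviate together (correlations of -0.02, -0.03 and -0.04), so the numbers do not pair the samples. With the replicate number as a block, 6, 2 and 5 members were called in the 3 comparisons, Ccl7 being lost in tumors against MUC1-CD culture (adjusted p = 0.0810).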

Other observations

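Several other chemokines had a mean signal under the filter value and were not tested, but differed in level between groups. Pf4, a platelet chemokine, had 85.5 and 83.2 in tumors against 1.3 to 31.9 on the 4 culture arrays. Ccl24, an eosinophil attractant, had 72.4 and 70.7 in tumors against 2.3 to 22.3 in culture. Ccl27, a skin chemokine, had 113.1 and 62 in tumors against 23.3 to 40.1 in culture. Ccl17, a Ccr4 ligand, was highest in MUC1-CD culture, with 64.2 and 26.9 against 5.9 and 8.3 in Vector and 6 and 6 in tumors. Ccl19 was lowest in tumors, with 12.2 and 9 against 23.1 to 46.3 in culture. These genes were picked after their values were seen.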
